A study of Mus musculus with 8 samples.

Results

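*Prg4*, *Creb5*, *Cilp*, *Cilp2* and *Clu* were examined in primary murine articular chondrocytes, the cells of joint cartilage, as a small group of genes tied to the joint surface. They were taken by gene symbol, and all 5 were found among the 54658 gene symbols of the count table. *Prg4* encodes lubricin (proteoglycan 4), the mucin-like glycoprotein that superficial zone chondrocytes and synovial lining cells secrete and that lets cartilage surfaces glide over each other. *Creb5* encodes a transcription factor of the CREB/ATF family, known for its place in the control of lubricin expression in superficial zone cells. *Cilp* and *Cilp2* encode secreted matrix glycoproteins named after the intermediate layer of cartilage, and *Clu* encodes clusterin, a secreted chaperone. The zone of origin was not measured here, since cartilage was digested to single cells before culture.

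The cells were released from femoral head cartilage of wild-type mice, 3 weeks of age. Each of the 2 groups held 4 samples: IL-1β (1 ng/mL, 24 h) and vehicle (24 h). IL-1β is an inflammatory cytokine that turns chondrocytes from matrix building to matrix breakdown, and the comparison asks how the chondrocyte transcriptome responds to it. RNA-Seq was performed on total RNA of whole cultures, and neither the number of mice behind a culture nor the separateness of the cultures is given in the sources used here. The p-values therefore measure the spread between these samples, which may be technical. In whole cultures, fewer cells of a type and less RNA per cell cannot be told apart.

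Total counts ran from 10992355 to 17456063 per sample, so that 3 counts corresponded to 0.174 to 0.271 CPM (reads of a gene scaled to a common total per sample). All 5 genes were among the 14404 genes tested by edgeR's quasi-likelihood test. The chondrocyte label was checked with 8 markers, all of which were detected. Their summed level ran from 16140 to 16750 CPM with vehicle and from 4190 to 4602 CPM with IL-1β. All 8 were downregulated, where 2.35% of all genes tested were. The leukocyte markers, in contrast, summed to 4.22 CPM or less in every sample, with *Cd3e* at 0, and the endothelial markers to 0.787 CPM or less.

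IL-1β moved these genes in opposite directions. *Prg4* was upregulated and *Cilp2* was downregulated, each by more than 2-fold, while *Cilp* was lower by a smaller amount and *Creb5* and *Clu* did not pass the test. Differentially expressed genes (DEGs) differed by more than 1 on the log2 scale with a p-value under 0.05 after Benjamini-Hochberg adjustment. By this rule 1 of the 5 genes was upregulated, where 2.86% of all genes tested were, and 1 was downregulated, where 2.35% were. By the adjusted p-value alone, 3 of the 5 genes differed, beside 40.2% of all genes tested. The log2 fold changes of the 5 genes had a median of 0.01 and ran from -1.27 to 1.23, and the median of all genes tested was 0.00 (rounded from -0.0012).

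**Figure D1:**
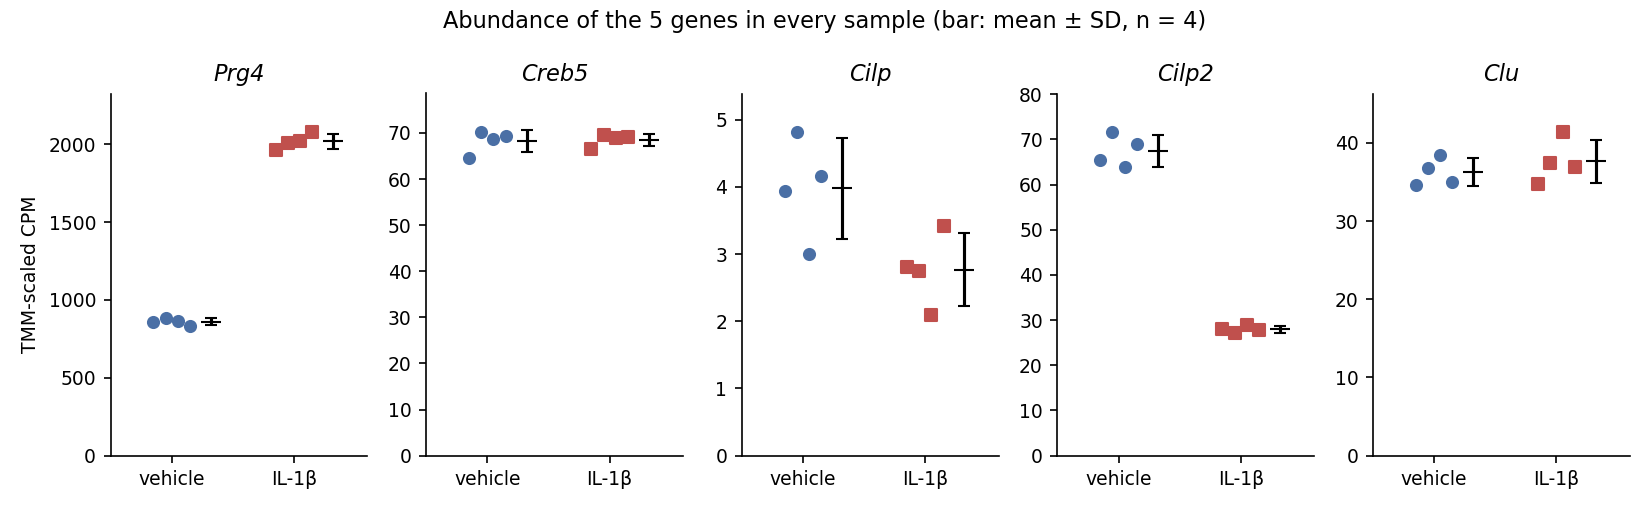
Abundance of the 5 genes in TMM-scaled CPM (y axis, linear from 0, a scale of its own for each gene) in the 4 vehicle samples (blue circles) and the 4 IL-1β samples (red squares), with the mean and SD of each group in black. The groups lie apart for Prg4 and Cilp2 and overlap for Creb5, Cilp and Clu.

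*Prg4* was the most abundant of the 5 genes. With vehicle its level was 859.3, 882.6, 864.1 and 829.9 CPM in samples 1 to 4. With IL-1β the level was 1962, 2010, 2021 and 2076 CPM. Each IL-1β sample was above every vehicle sample, and 36.8% of all genes tested had groups that did not overlap, in one direction or the other. Mean *Prg4* rose from 859 ± 21.8 to 2017 ± 47.2 CPM (SD, n = 4), a 2.35-fold increase. The log2 fold change was 1.23 (SE 0.0284; 95% confidence interval 1.17 to 1.29; edgeR adjusted p = 4.79e-24), and the exact permutation test over samples, two-sided, gave p = 0.0286, the smallest that 4 against 4 allows. In order of mean CPM, *Prg4* went from rank 86 to rank 29 among the genes tested.

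The *Prg4* gene lies at chr1:150449412-150466165 on the minus strand (GRCm38). The gene encodes a mucin domain of repeats, which carries the sugar chains behind the lubricating action of the protein. In its longest coding transcript 2 stretches of 24 bases were tied as the most frequent, and 1 of them is shown, since the repeats bear on how its reads can be placed:
Prg4 repeat: ccaaggagcctgaacccacaactc
This stretch occurred 18 times between bases 1065 and 2354 of the 4263-base transcript. Of all windows of 50 bases in the transcript, 18.1% occurred more than once within it, and no window of the other 4 genes did. How reads that align to several places were counted is not given in the sources used here, and the effect on the absolute level of *Prg4* was not measured. *Prg4* also shares 204 exonic bases (4.77% of its exons) with *Tpr*, a nuclear pore gene on the opposite strand, and reads from the shared bases cannot be assigned without strand. *Tpr* itself had a mean of 306.5 CPM with vehicle, against 308.0 CPM with IL-1β.

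The 3′ UTR of *Prg4* was searched for the seed of miR-146a-5p, the miRNA that the study follows. The mature miRNA (RefSeq, GRCm38.p6, chr11:43374435-43374456, minus strand) is shown with its seed, bases 2 to 8, in capitals, above the matching stretch of *Prg4*, where the capitals mark the complement of the seed:
miR-146a-5p: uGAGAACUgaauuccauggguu
Prg4 3′ UTR: tacaaaacAGTTCTCaacttgac
The match lies at bases 121 to 127 of the 572-base 3′ UTR, at chr1:150449857-150449863 on the minus strand, and is followed by an A. The longest coding transcripts of *Creb5*, *Cilp*, *Cilp2* and *Clu* had 0 matches in 3′ UTRs of 6289, 228, 489 and 230 bases. Of 11909 genes tested that had a 3′ UTR, 13.0% held at least 1 such match and 4.80% held it followed by an A. Among the 5 genes only *Prg4* held the match. The median 3′ UTR of the genes tested had 1267 bases, longer than those of *Prg4*, *Cilp*, *Cilp2* and *Clu*. Whether the match bears on the level of *Prg4* was not tested. A match of letters does not show that the miRNA binds there, and nothing was drawn from it.

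Lubricin is also a product of the synovial lining, so markers of that tissue were set beside *Prg4*. The 8 synovial lining and fibroblast markers summed to between 97.0 and 105.9 CPM with vehicle and between 125.6 and 134.5 CPM with IL-1β. *Pdpn*, a mucin-like surface glycoprotein of lining fibroblasts, was the 1 DEG among them, at 5.85 ± 0.703 CPM with vehicle against 28.1 ± 1.10 CPM with IL-1β (n = 4; log2 fold change 2.26, SE 0.0843, edgeR adjusted p = 4.86e-19). Over all genes tested, 2.86% were upregulated. The markers *Thy1*, *Dpp4* and *Pi16* had means of 0.435 CPM or less in both groups and were too low to be tested. Of the other 4 markers tested, none a DEG, *Cd34* (log2 fold change 0.76, edgeR adjusted p = 1.06e-08) and *Pdgfra* (0.58, edgeR adjusted p = 4.32e-11) were higher with IL-1β, each with groups that did not overlap. *Cd55* (-0.92) and *Col3a1* (-0.34) were lower. The part of these cells in the result for *Prg4* was not tested.

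*Creb5* is the largest of the 5 genes, at chr6:53287270-53700376 on the plus strand (GRCm38). Its level was 64.65, 70.13, 68.68 and 69.30 CPM in vehicle samples 1 to 4. With IL-1β it was 66.54, 69.53, 68.82 and 69.16 CPM. The 2 groups overlapped nearly in full. The means were 68.2 ± 2.43 CPM with vehicle against 68.5 ± 1.35 CPM with IL-1β (SD, n = 4), and the log2 fold change of 0.01 (SE 0.0395) did not pass the test (edgeR adjusted p = 0.892, exact permutation p = 0.829). The 95% confidence interval was -0.07 to 0.09, that is, between 0.951 and 1.064 of the vehicle level. At this precision, a change of *Creb5* mRNA as large as that of *Prg4* lay outside the interval.

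RefSeq lists 2 start sites for *Creb5*. The 250 bases before each are shown because *Creb5* belongs to the family of factors that bind cAMP response elements (CRE) and, in some pairings, AP-1 elements. The capitals mark a palindromic CRE in the first (chr6:53287053-53287302, plus strand, GRCm38.p6) and an AP-1 element in the second (chr6:53573124-53573373, plus strand):
Creb5 promoter 1: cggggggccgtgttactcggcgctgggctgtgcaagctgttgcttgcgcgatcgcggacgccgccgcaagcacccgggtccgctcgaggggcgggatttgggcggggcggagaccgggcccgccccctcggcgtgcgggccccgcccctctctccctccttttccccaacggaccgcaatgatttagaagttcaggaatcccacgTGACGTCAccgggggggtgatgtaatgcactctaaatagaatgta
Creb5 promoter 2: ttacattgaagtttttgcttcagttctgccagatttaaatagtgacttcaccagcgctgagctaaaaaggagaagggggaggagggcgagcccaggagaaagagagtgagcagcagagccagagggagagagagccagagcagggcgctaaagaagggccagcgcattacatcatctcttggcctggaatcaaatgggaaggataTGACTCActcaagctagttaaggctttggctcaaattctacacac
Each element begins 45 bases before its start site. Promoters were searched on both strands, over 250 bases before and 50 after the start, for 7 motifs. The letters TGACG stood for a short CRE and TGACGT, which contains them, for the CRE core. The AP-1 element was read as TGANTCA and the FOXO element as TGTTTAC. The basal elements were read as TATAAA for the first kind (TATA box) and as GGGCGG for the other (GC box), and the NF-κB consensus was searched by its usual form. The table of promoters held 3 of the 5 genes, and the single promoters of *Cilp* and *Cilp2* held 0 matches to the CRE and AP-1 letters. Of 32851 promoters searched, 7.51% held the CRE core and 7.81% held AP-1. These matches are a description of the letters, and no binding was measured.

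*Cilp2*, at chr8:69880369-69887687 on the minus strand (GRCm38), was the gene that fell. Its level with vehicle was 65.34, 71.58, 63.96 and 68.97 CPM in samples 1 to 4. With IL-1β it was 28.02, 27.13, 28.96 and 27.75 CPM. Every IL-1β sample was below every vehicle sample. Mean *Cilp2* dropped from 67.5 ± 3.46 to 27.97 ± 0.760 CPM (SD, n = 4), 2.41-fold lower, with a log2 fold change of -1.27 (SE 0.0471; 95% confidence interval -1.37 to -1.17; edgeR adjusted p = 4.14e-19; exact permutation p = 0.0286).

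*Cilp*, its paralog at chr9:65265180-65280605 on the plus strand (GRCm38), was close to the filter on low counts, with 31 to 83 reads per sample. No stretch of 50 bases of its longest coding transcript or that of *Cilp2* occurred in another gene. Its level was 3.94, 4.81, 3.01 and 4.15 CPM in vehicle samples 1 to 4. With IL-1β it was 2.80, 2.75, 2.09 and 3.42 CPM. The groups overlapped, since vehicle sample 3 was below IL-1β sample 4. The means were 3.98 ± 0.747 and 2.76 ± 0.543 CPM (SD, n = 4), and the log2 fold change was -0.55 (SE 0.174; 95% confidence interval -0.91 to -0.19). *Cilp* had an edgeR adjusted p of 0.0124 but was not a DEG, and the exact permutation test gave p = 0.0571. The edgeR call rested on single samples: without IL-1β sample 3 the log2 fold change was -0.41 with an adjusted p of 0.0785, and without vehicle sample 2 it was -0.44 with an adjusted p of 0.0675.

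*Clu*, at chr14:65968483-65981547 on the plus strand (GRCm38), had levels of 34.67, 36.81, 38.49 and 35.01 CPM in vehicle samples 1 to 4. With IL-1β its level was 34.80, 37.48, 41.35 and 36.93 CPM. The groups overlapped, and IL-1β sample 3 was the highest of the 8. The means were 36.2 ± 1.77 CPM with vehicle against 37.6 ± 2.73 CPM with IL-1β (SD, n = 4). The log2 fold change of 0.06 (SE 0.0535) did not pass the test (edgeR adjusted p = 0.370, exact permutation p = 0.457), with a 95% confidence interval of -0.05 to 0.17, or 0.969 to 1.13 of the vehicle level.

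**Figure D2:**
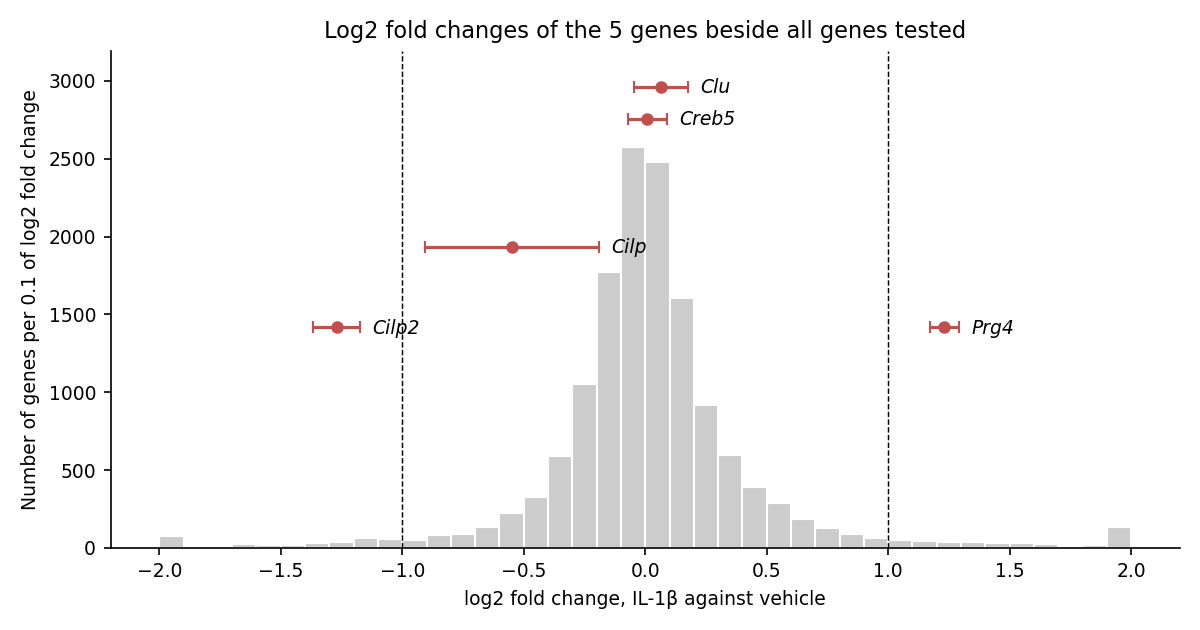
Log2 fold change of IL-1β against vehicle (x axis) for the 5 genes, as red points with their 95% confidence intervals, set over the number of genes per 0.1 of log2 fold change among all 14404 genes tested (grey bars, y axis). The height of the red points carries no value, the dashed lines mark log2 fold changes of -1 and 1, and the 183 genes beyond 2 in either direction are counted in the outermost bars; Prg4 and Cilp2 lie beyond the dashed lines.

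Levels of different genes were compared per kilobase of exon, using the gene lengths deposited beside the counts. With vehicle the order was *Prg4* (201 ± 5.10 CPM per kilobase), *Cilp2* (15.6 ± 0.803), *Clu* (10.6 ± 0.514), *Creb5* (2.73 ± 0.0973) and *Cilp* (0.935 ± 0.176). With IL-1β it was *Prg4* (471 ± 11.03), *Clu* (10.95 ± 0.794), *Cilp2* (6.48 ± 0.176), *Creb5* (2.74 ± 0.0539) and *Cilp* (0.650 ± 0.128). In each group, no neighbours in the order overlapped over the 4 samples. *Cilp2* and *Clu* thus changed places on this scale. The deposited length of *Creb5* (25021 bases) joins the exons of 15 transcripts, and its longest coding transcript has 7917 bases. With the longest coding transcripts, a choice made after the data were seen, *Creb5* was at 8.61 and 8.65 CPM per kilobase and *Clu* at 20.02 and 20.8 (vehicle and IL-1β), so that *Clu* was above *Cilp2* in both groups and *Creb5* was above *Cilp2* with IL-1β.

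Ratios within each sample asked whether pairs of genes changed by different amounts. The log2 ratio of CPM was compared between groups for the 10 pairs of the 5 genes and for each gene against *Col2a1* and *Acan*, the main collagen and the main proteoglycan of cartilage, by exact permutation tests (two-sided, n = 4 per group) with p-values adjusted over these 20 ratios. Of the 10 pairs, 7 passed, each with an exact permutation p = 0.0286 (adjusted 0.0336). All 7 hold *Prg4* or *Cilp2*, the 2 DEGs, so this count is not separate from their fold changes. The log2 ratio of *Prg4* to *Creb5* was 1.22 higher with IL-1β, and that of *Prg4* to *Cilp2* was 2.501 higher. The ratio of *Cilp2* to *Clu* was lower by 1.32 (difference of -1.32). This pair changed places per kilobase of the deposited lengths, but not with the longest coding transcripts. The paralogs differed as well, with the log2 ratio of *Cilp* to *Cilp2* higher by 0.74 with IL-1β.

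The 3 pairs that did not pass were those among *Creb5*, *Cilp* and *Clu*. The log2 ratio of *Creb5* to *Clu* differed by -0.05 (exact permutation p = 0.514, adjusted 0.514), that of *Creb5* to *Cilp* by 0.53 (exact permutation p = 0.0571, adjusted 0.0635), and that of *Cilp* to *Clu* by -0.58 (exact permutation p = 0.0857, adjusted 0.0902). Against the main matrix genes, all 10 ratios were higher with IL-1β. Both matrix genes fell, with log2 fold changes of -1.98 (*Col2a1*) and -2.37 (*Acan*). Any gene that fell less gives a higher ratio, and only 73 of the 14404 genes tested had a log2 fold change below -1.9. The count of 10 therefore does not set these genes apart. *Prg4* rose 12.2-fold relative to *Acan* and 9.25-fold relative to *Col2a1*. The log2 ratio of *Cilp2* to *Acan* was also 1.11 higher, since *Acan* was at 1286 ± 35.9 CPM with vehicle against 248 ± 12.0 CPM with IL-1β (n = 4), a log2 fold change of -2.37.

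**Figure D3:**
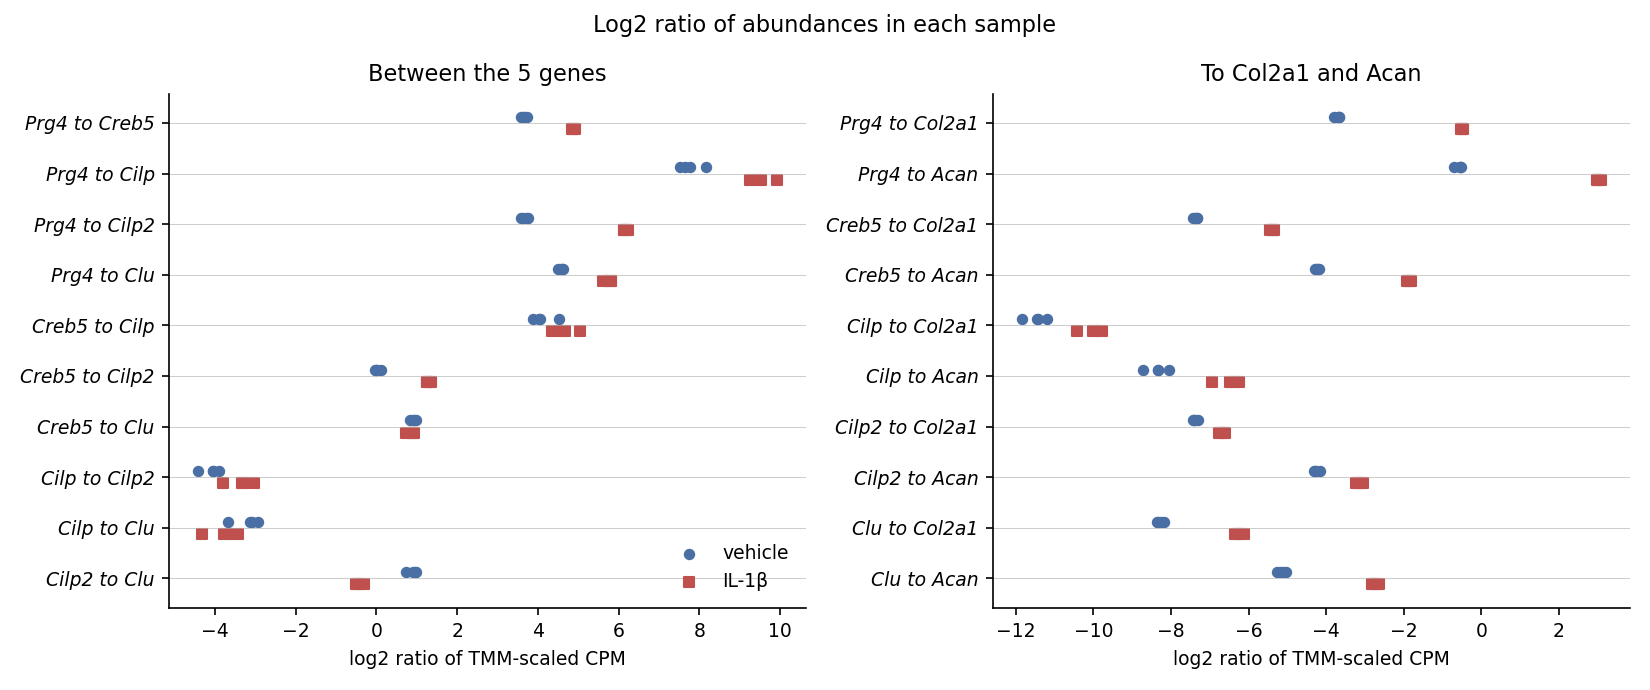
Log2 ratio of TMM-scaled CPM (x axis) between pairs of genes (rows) in each of the 4 vehicle samples (blue circles) and the 4 IL-1β samples (red squares), for the 10 pairs of the 5 genes (left) and for each gene against Col2a1 and Acan (right). The place of a row on the axis depends on gene length, so only the shift between the groups is to be read; the groups lie apart in the 17 ratios that passed the test and overlap in the 3 that did not.

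Other genes of the superficial zone and the joint surface did not move one way. Of 10 such genes, 7 were tested and *Dkk3*, *Col22a1* and *Tppp3* were too low. The list held 2 upregulated DEGs and 1 downregulated DEG, with a median log2 fold change of 0.28. Over all genes tested, 2.86% were upregulated and 2.35% downregulated. By the adjusted p-value alone, 4 of the list were higher and 2 lower, beside 40.2% of all genes tested in either direction. *Gdf5*, a growth factor of the developing joint, rose from 2.39 ± 0.307 to 11.2 ± 0.732 CPM (log2 fold change 2.23, edgeR adjusted p = 7.14e-15, n = 4). *Abi3bp*, which encodes an extracellular matrix protein, rose from 33.2 ± 1.91 to 72.3 ± 4.21 CPM (log2 fold change 1.13). *Tnc*, which encodes the matrix glycoprotein tenascin C, fell from 31.0 ± 0.913 to 13.6 ± 1.86 CPM (log2 fold change -1.19). *Erg*, a transcription factor of articular chondrocytes, was lower without being a DEG (log2 fold change -0.51, edgeR adjusted p = 2.92e-05), and *Vit* (0.31) and *Thbs4* (0.28) were higher.

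The genes listed for the middle and deep zones were lower with IL-1β. The list shares *Col2a1*, *Acan*, *Hapln1*, *Col9a1*, *Col11a1* and *Matn3* with the chondrocyte markers above. A fall by zone therefore cannot be told apart from a general fall of cartilage matrix genes. Of 14 such genes 13 were tested, with *Ihh* too low, and 12 were downregulated DEGs and 0 were upregulated. Over all genes tested, 2.35% were downregulated and 2.86% upregulated. The 13 genes had a median log2 fold change of -1.85, with a range of -2.996 to -0.40. *Col10a1*, the collagen of hypertrophic cartilage, fell from 102 ± 4.17 to 12.7 ± 0.986 CPM (log2 fold change -2.996). *Epyc*, a small leucine-rich proteoglycan, was the 1 gene that was not a DEG (log2 fold change -0.40, edgeR adjusted p = 1.81e-07). The log2 fold changes of *Cilp2* and *Cilp* lay inside this range, but so did those of *Tnc* (-1.19) and *Erg* (-0.51) of the superficial zone list. The range therefore does not tell the lists apart.

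**Figure D4:**
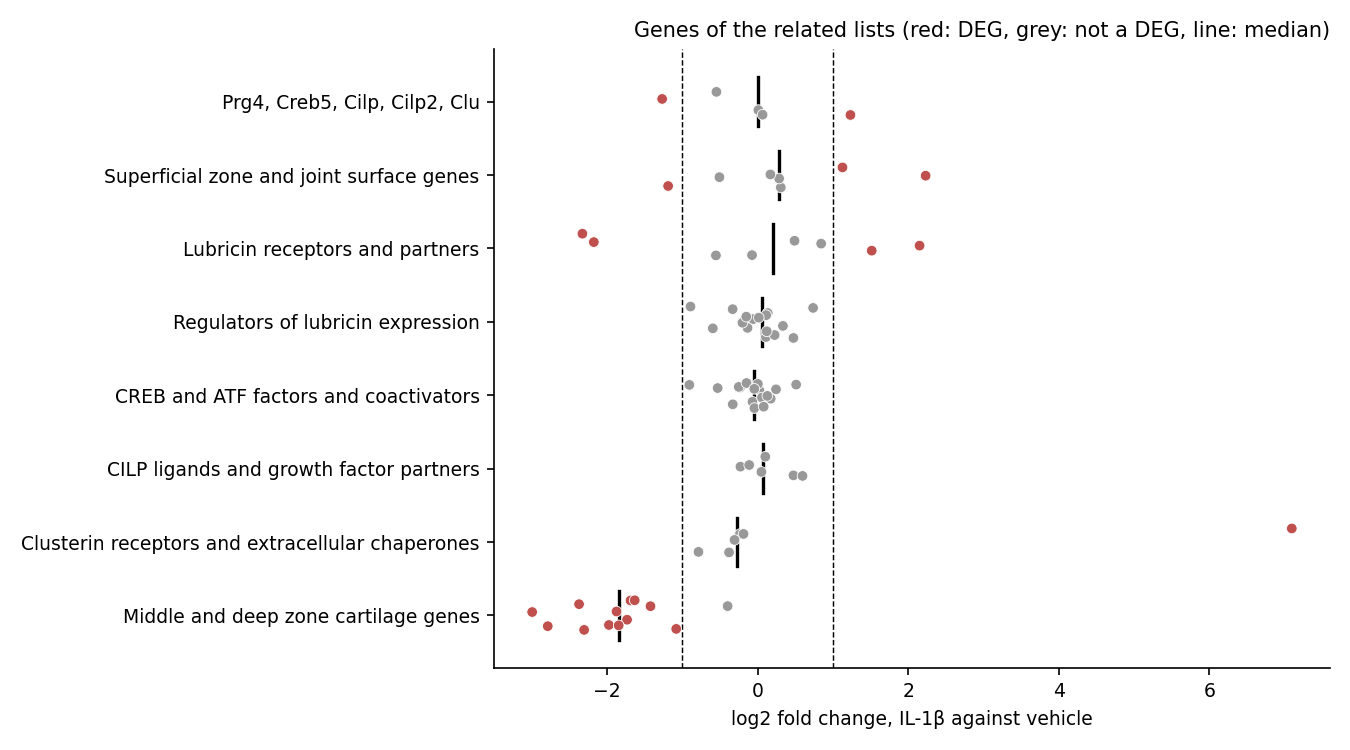
Log2 fold change of IL-1β against vehicle (x axis) for the 5 genes and for the tested genes of 7 related lists (rows); each point is 1 gene, DEGs in red and other genes in grey, with a black line at the median of each row and dashed lines at -1 and 1. The middle and deep zone genes lie below 0 throughout, while the other rows hold genes on both sides of 0.

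Known regulators of lubricin expression stayed within the 2-fold threshold. Of the 16 tested, 0 were DEGs by edgeR and 0 by DESeq2. Over all genes tested, edgeR called 2.86% upregulated and 2.35% downregulated, so a count of 0 among 16 does not set these genes apart. By edgeR, 12 had an unadjusted p-value under 0.05, beside 46.6% of all genes tested. By the adjusted p-value alone, 7 were higher and 4 lower, beside 40.2% of all genes tested in either direction. The median log2 fold change was 0.06. Members of the TGF-β pathway, a known inducer of lubricin, went both ways. The ligand *Tgfb1* was higher (log2 fold change 0.47), while *Tgfb2* (-0.89) and *Tgfb3* (-0.60), the receptor *Tgfbr2* (-0.33) and the signal transducer *Smad3* (-0.20) were lower. *Egfr*, the receptor for EGF family ligands and another regulator of the superficial zone, went from 54.3 ± 2.69 to 90.4 ± 2.69 CPM (log2 fold change 0.74, edgeR adjusted p = 8.74e-15, n = 4). Among the FOXO factors, *Foxo4* had a log2 fold change of 0.33, *Foxo3* of 0.11 and *Foxo1* of 0.11.

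The list of CREB and ATF factors and their coactivators gave 0 DEGs of 17 by edgeR and 0 by DESeq2. Over all genes tested, 2.86% were upregulated and 2.35% downregulated by edgeR. In the list, 10 had an unadjusted p-value under 0.05 (46.6% over all genes tested). By the edgeR adjusted p-value alone, 4 were higher and 6 lower (40.2% over all genes tested, in either direction). The median log2 fold change was -0.04. *Atf3*, a stress-induced member of the family, came closest to the threshold, at 62.1 ± 2.44 CPM with vehicle against 33.2 ± 1.75 CPM with IL-1β (n = 4; log2 fold change -0.91, edgeR adjusted p = 9.06e-16). *Atf2*, a close relative of *Creb5*, was higher (log2 fold change 0.24, edgeR adjusted p = 3.27e-05). For *Atf7*, the other close relative, the log2 fold change was -0.04 (edgeR adjusted p = 0.378), and for *Creb1* it was -0.07 (edgeR adjusted p = 0.199). The coactivator *Ep300* was higher (0.17), and *Crebbp* had a log2 fold change of 0.00 (edgeR adjusted p = 0.973).

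Receptors and partners of lubricin held DEGs in both directions. Of 9 genes, 8 were tested (*Vtn* was too low), with 2 upregulated and 2 downregulated DEGs and a median log2 fold change of 0.21. Over all genes tested, 2.86% were upregulated and 2.35% downregulated. By the adjusted p-value alone, 4 of the list were higher and 3 lower, beside 40.2% of all genes tested in either direction. Both upregulated genes encode receptors that lubricin binds: *Cd44*, also the receptor for hyaluronan, rose from 114 ± 6.51 to 326 ± 13.8 CPM (log2 fold change 1.51, edgeR adjusted p = 5.66e-23, n = 4). *Tlr2*, a receptor of innate immunity, rose from 13.2 ± 0.466 to 58.9 ± 3.32 CPM (log2 fold change 2.15), and *Tlr4* was higher without being a DEG (0.49). Both downregulated genes are of the matrix. *Comp*, a cartilage glycoprotein that binds lubricin, fell from 533 ± 12.3 to 106 ± 7.19 CPM (log2 fold change -2.33), and *Has2*, a hyaluronan synthase, fell from 16.7 ± 0.970 to 3.73 ± 0.801 CPM (log2 fold change -2.18). *Has1*, in contrast, was higher (log2 fold change 0.84, edgeR adjusted p = 4.38e-05). *Fn1* was lower without being a DEG, at 39530 CPM with vehicle against 26900 CPM with IL-1β (log2 fold change -0.56, edgeR adjusted p = 3.26e-19).

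Growth factor partners of *Cilp* gave 0 DEGs by edgeR and 0 by DESeq2 among the 6 of 7 genes tested. The edgeR shares over all genes tested were 2.86% upregulated and 2.35% downregulated. Of the 6 genes, 5 had an unadjusted p-value under 0.05 (46.6% over all genes tested). By the adjusted p-value alone, 2 were higher and 2 lower (40.2% over all genes tested, in either direction). The list of clusterin receptors and extracellular chaperones had 6 of 9 genes tested and 1 DEG, which was upregulated (2.86% over all genes tested). *Hp*, the haemoglobin-binding acute phase protein haptoglobin, rose from 1.72 ± 0.432 to 239 ± 10.6 CPM (log2 fold change 7.09, edgeR adjusted p = 5.51e-33, n = 4). The receptors *Lrp2* (-0.79), *Lrp8* (-0.38) and *Vldlr* (-0.24) were lower by the adjusted p-value (40.2% over all genes tested, in either direction). The median of the list was -0.27.

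The genes whose profile over the 8 samples was most like that of each gene were ranked by the root mean square difference of log2(CPM + 0.5), each profile centred on its own mean. For *Prg4* they were *Sdc4* (difference of 0.0326), *Man1a* (0.0383) and *Pnrc1* (0.0444), with log2 fold changes of 1.19 to 1.21. *Sdc4* encodes the cell surface proteoglycan syndecan 4. For *Cilp2* they were *Igdcc4* (0.0558), *Col9a3* (0.0600), a chain of the cartilage collagen IX, and *Timp3* (0.0628), an inhibitor of metalloproteinases, with log2 fold changes of -1.26 to -1.22. For *Cilp* the nearest gene, *B230217O12Rik*, was at 0.135, farther than for the other 4 genes. *Yipf3* was nearest to *Creb5* (0.0198) and *Map1s* to *Clu* (0.0189).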

How the data were processed

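RNA-Seq counts of 8 samples were analysed. Per the methods, the authors used cutadapt for trimming, STAR for alignment (mm10, GENCODE vM20) and featureCounts for counting; the sources give different STAR versions, 2.4.2a in the submitters' processing notes. They deposited whole-number counts per gene symbol, not normalized, and gene lengths in bases. Whether the deposited counts precede or follow the authors' RUVseq correction, and whether counting used strand, is not given in the sources used here.

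The labels gave each sample's treatment and so its group. Genes over 1 CPM in 4 samples or more were TMM-normalized and tested with the quasi-likelihood test of edgeR 4.0.16 (R 4.3.3; limma 3.58.1), with treatment as the only term and p-values adjusted over all 14404 genes tested. DEGs differed by more than 1 on the log2 scale with an adjusted p-value under 0.05. On simulated data with 200 changed genes among 14404 for this comparison, edgeR and DESeq2 (1.42.0) each recovered 100% with 0 false calls. Every simulated gene had the same dispersion (0.0017), and all planted changes were larger than those of *Prg4* and *Cilp2*. The run therefore does not show how well changes of their size, or genes as low as *Cilp*, are recovered. CPM, SD, per-kilobase levels and exact permutation tests were computed in Python 3.11.15 (scipy 1.17.1). Alternatives were DESeq2, its size factors, total library size, 1 RUVs factor, a replicate block, other filters, a test against a log2 fold change of 1 and leaving out each sample.

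Positions, overlaps and 3′ UTRs came from GENCODE vM21 (GRCm38), whose exon lengths equal the deposited length for all 5 genes. Promoter and miRNA sequences came from RefSeq (GRCm38.p6), chromosome 18 left out of the promoter shares. Protein sequences were not analysed here. The 5 genes and the lists were chosen with earlier results of these data known. Named genes were the 5 genes, genes of the lists and markers (DEGs with the largest change and at least 5 CPM first), the 3 genes of at least 5 CPM with the most similar profile, and the neighbouring protein-coding genes.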

Additional observations from a re-analysis of the deposited data

How the results depend on the processing

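*Prg4* and *Cilp2* were DEGs under all 16 alternatives, with log2 fold changes of 1.21 to 1.246 and -1.297 to -1.24. *Clu* kept its direction and stayed outside the threshold (0.01 to 0.10). Leaving out 1 sample each, *Creb5* ranged from -0.0186 to 0.0218, turning negative at -0.0186 without vehicle sample 1, and did not pass the test in any fit. *Cilp* ranged from -0.67 to -0.41 in these fits, with adjusted p-values of 0.00383 to 0.0785. When tested against a log2 fold change of 1, *Cilp* could not pass, since its estimate (-0.55) lies inside that bound. Under the same test the DEGs of the superficial zone list dropped from 3 to 1, *Gdf5*. With the longest coding transcripts, *Creb5* was at 8.61 CPM per kilobase with vehicle and 8.65 with IL-1β, and *Clu* at 20.02 and 20.8; the joined exons of several transcripts make the deposited lengths longer. The replicate block gave 1.23 for *Prg4*, 0.01 for *Creb5*, -0.53 for *Cilp*, -1.27 for *Cilp2* and 0.05 for *Clu*, and it changed no call; samples with the same number shared no deviations (correlations of -0.07 to 0.04) and 1 of 4 IL-1β samples correlated best with its own number, so that the numbers were not taken as pairs. With 0.5 CPM added before the log, 17 ratios passed as well. The scaling factor of a sample cancels in a ratio within that sample, so other scalings could not change this count. With a sample left out, 3 against 4 cannot pass after adjustment. Depth limits *Cilp*, with 31 to 83 reads a sample.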

Other observations

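The protein-coding genes next to the 5 genes were given by position alone. *Odr4*, beside *Prg4*, had a log2 fold change of 0.01 (SE 0.0505, edgeR adjusted p = 0.923), and *Hmcn1*, a matrix protein on its other side, of -0.70 (edgeR adjusted p = 0.000239). *Yjefn3*, which lies 101 bases from *Cilp2*, had a log2 fold change of -0.38 (SE 0.263, edgeR adjusted p = 0.279), with means of 1.35 and 1.03 CPM (vehicle and IL-1β). Beside *Clu*, *Gulo* had a log2 fold change of -1.43 (edgeR adjusted p = 5.05e-05) at 2.16 CPM with vehicle, and *Scara3* of -0.48 (edgeR adjusted p = 2.41e-08). Beside *Cilp*, *Parp16* was at 0.59 (edgeR adjusted p = 0.00413) and *Clpx* at -0.20 (edgeR adjusted p = 0.00187).

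The 5 osteoblast markers summed to between 182.0 and 187.2 CPM in vehicle samples, against between 88.0 and 101.7 CPM in IL-1β samples. Of them 3 were downregulated DEGs, where 2.35% of all genes tested were. The adipocyte markers, nearly all of them *Lpl*, summed to between 21.3 and 27.6 CPM and between 8.32 and 11.2 CPM, and the muscle markers to at most 2.90 CPM in any sample. Red blood cell markers summed to at most 1.81 CPM, with *Hbb-bt* at 0. The part of these cells in the results above was not tested.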
